A study of Mus musculus with 64 samples.

Results

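A set of 37 genes of the cell cycle and of DNA replication was followed in RNA sequencing of mouse pancreatic tumor cell lines grown with and without fibroblasts. The genes were given as a list of symbols, and all 37 were found among the 39017 genes of the count table. They were divided by textbook role into 4 G1/S regulators (Ccnd1, Ccne1, Ccne2 and E2f1), 11 S-phase genes (Mcm2 to Mcm7, Pcna, Gins2, Cdc6, Cdt1 and Tyms), the cyclin Ccna2, which acts in both S phase and G2, and 21 mitotic genes. The question was how far the set moved in coculture, in which lines, and whether the S-phase and the mitotic members moved together.

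The cells were 7 clones from a polyclonal line of a pancreatic tumor of a KPC mouse, which carries a mutant Trp53 allele and the recombinase Cre under the Pdx1 promoter, and a further line named KPC1, all on a mixed C57BL/6 background. Each clone is a single isolate, so a clone and its genotype cannot be told apart. The study placed E, H and V in group 1 and K, M, N and T in group 2 by their metabolites, and KPC1 in neither. The 64 libraries comprised 4 of each line in mono-culture and 4 of each line after growth for 48 h together with fibroblasts, from which the tumor cells were recovered by flow sorting on their green fluorescent protein (GFP). Sorting of the mono-cultures, their time of growth and the origin of the 4 libraries in separate cultures are not stated in the labels, so tests within a line measure the spread between libraries, which may be technical.

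Library totals lay between 11178721 and 21333683 counts, and each of the 64 libraries correlated best with another of its own line and culture. The keratins Krt18 and Krt8 stood at 961 to 1516 and 692 to 1256 CPM (counts scaled to the same library total) in mono-culture, as in cells of ductal origin, whereas the epithelial genes Epcam, Cldn4 and Cldn7 were under 1 CPM in every line. Transcripts of fibroblast marker genes were seen in the sorted coculture libraries. Thy1, which had 0 counts in all mono-culture libraries, stood at 6.08 to 16.4 CPM in coculture, and Postn, at 0.0502 CPM or less in mono-culture, stood at 40.9 to 74.6 CPM. Of the 18 fibroblast markers listed, 14 were called higher in coculture and 1 lower, and their summed level ranged from 4803 to 8329 CPM in mono-culture and from 5593 to 9260 CPM in coculture, most of it Vim, which the tumor cells also express. Of 10 epithelial tumor markers 0 were called higher and 4 lower, namely Krt19 (-0.68 on the log2 scale), Krt8 (-0.49), Elf3 (-0.75) and Epcam (-1.19), and their summed level ranged from 2224 to 3539 CPM in mono-culture and from 1704 to 3116 CPM in coculture. Of 4 immune and endothelial markers, Cd68 was called higher (1.39) and Pecam1 lower (-1.06), while Ptprc, which marks leukocytes, was at 0.115 CPM or less in every line. The part of RNA from fibroblasts or other cells in the changes below was not tested, since no library of fibroblasts alone was analysed here. In these bulk libraries, more cells in a phase of the cycle and more RNA of its genes per cell cannot be told apart.

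A cell that enters the cycle first raises D-type and E-type cyclins, whose kinases release the E2F transcription factors from the retinoblastoma protein. E2F then drives the genes that load and fire replication origins and make nucleotides, so their transcripts peak around the entry into S phase. The genes for chromosome condensation, the spindle and the checkpoint follow in G2 and mitosis under the DREAM, B-Myb and FoxM1 factors, and many of them are degraded as proteins when mitosis ends.

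In coculture, nearly the whole set stood higher. Over the 8 lines, 36 of 37 members were called higher and 0 lower, against 26.8% of all 16246 genes tested called higher and 25.2% lower. The median log2 fold change was 0.84 over the 37 members and 0.0060 over all genes. By role, all 4 G1/S regulators, all 11 S-phase genes, Ccna2 and 20 of 21 mitotic genes were called, with median log2 fold changes of 0.85 for the G1/S regulators, 0.59 for the S-phase genes and 0.85 for the mitotic genes. The exception was Ccnb2, which encodes cyclin B2, with a log2 fold change of 0.57 (SE 0.28, adjusted p = 0.123). These tests used the 4 libraries of each line and culture summed, 16 sums with the line as a covariate, in edgeR's quasi-likelihood test with a Benjamini-Hochberg adjusted p under 0.1.

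The direction was shared by most lines. All 8 lines were higher in coculture for 28 of 37 members, against 14.4% of all genes, and all 7 clones were higher for 34 members, against 16.5%. Of the mitotic genes, 20 of 21 were higher in all 8 lines, compared with 6 of 11 S-phase genes. Over the 7 clones, without KPC1, these counts were 20 of 21 and 10 of 11, and the difference between the roles was not tested. The mean log2 CPM of the S-phase members rose by 0.649 ± 0.338 (SD, n = 8 lines) and that of the mitotic members by 0.869 ± 0.503, and both changes were positive in 8 of 8 lines. The 4 coculture libraries lay wholly above the 4 mono-culture libraries of their line in 6 lines for the S-phase level and in 5 lines for the mitotic level.

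**Figure D1:**
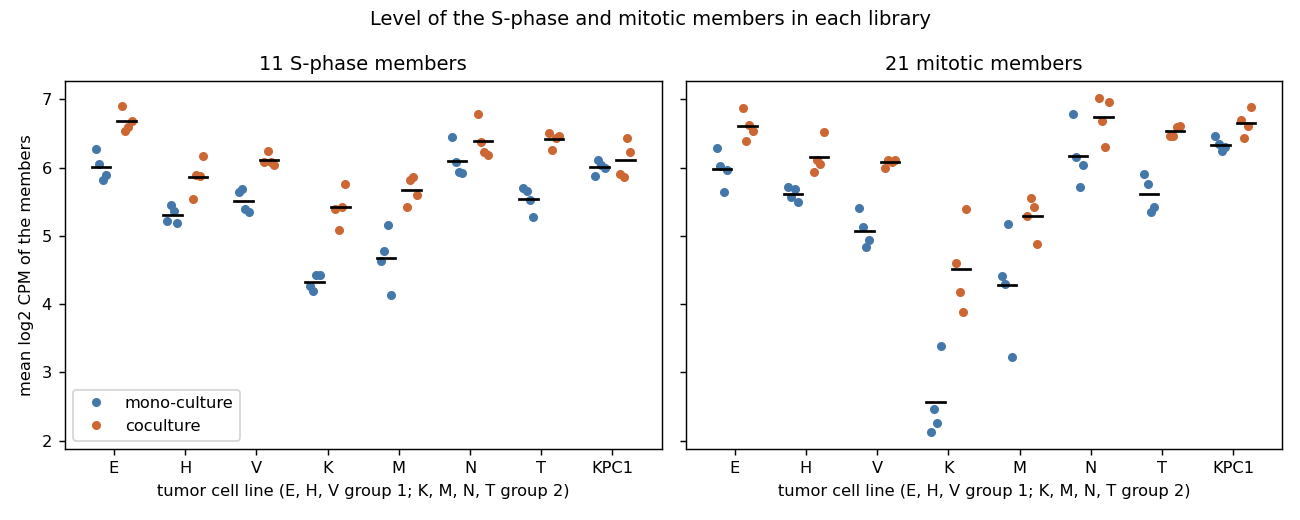
Mean log2 CPM of the 11 S-phase members (left) and the 21 mitotic members (right) in each of the 64 libraries, with mono-culture and coculture side by side for each line; points are libraries and bars the mean of 4. The means in coculture were above those in mono-culture in all 8 lines, and clone K in mono-culture was the lowest, at 4.32 for the S-phase and 2.56 for the mitotic members.

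Among the S-phase members, Cdt1 changed the most. It encodes the licensing factor that brings the MCM helicase to replication origins, and lies at chr8:122568015-122573554 (GRCm38, plus strand). Its level in mono-culture was 15.3 CPM in the lowest line (K), 30.2 CPM at the median and 52.2 CPM in the highest (KPC1), and in coculture it was 28.3, 76.7 and 99.9 CPM in the lowest, the median and the highest line. The log2 fold change was 1.18 (SE 0.11, adjusted p = 0.000127), and Cdt1 was one of 3 S-phase members, with Mcm2 and Mcm7, that passed the test in all 8 lines taken singly.

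Cdc6 works with Cdt1 in loading the helicase and lies at chr11:98907801-98923940 (plus strand). Among the S-phase genes it had the widest range of log2 fold changes over lines, from -0.11 in KPC1 to 2.97 in K. In mono-culture Cdc6 ranged from 0.670 CPM in clone K to 19 CPM in clone N, with a median of 7.87 CPM. In coculture it ranged from 5.39 CPM in K to 30.4 CPM in E, with a median of 14.3 CPM. The log2 fold change over lines was 1.02 (SE 0.27, adjusted p = 0.0129). The 4 libraries of clone K held 0.648, 0.482, 0.604 and 0.974 CPM in mono-culture and 4.46, 3.55, 3.41 and 9.91 CPM in coculture, with no overlap, although the lowest of these rests on 7 counts. In clone N the mono-culture values of 25.3, 21.7, 15.2 and 15.2 CPM overlapped the coculture values of 39.1, 28.6, 17.6 and 13.6 CPM.

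Mcm2, a subunit of the MCM helicase itself, lies at chr6:88883474-88898780 (minus strand). It stood at 31.4 CPM in the lowest line, 87.4 CPM at the median and 129 CPM in the highest in mono-culture, compared with 71.3, 148 and 187 CPM in coculture. Its log2 fold change was 0.82 (SE 0.10, adjusted p = 0.000534). The other helicase subunits rose less, with log2 fold changes between 0.37 for Mcm4 and 0.69 for Mcm3, and Mcm5 passed in only 2 lines, K (2.15) and M (1.22). Pcna, the sliding clamp of the replication fork, changed by 0.52, Gins2, a subunit of the replicative helicase complex, by 0.76, and Tyms, the thymidylate synthase, by 0.38. The call of Mcm5 (0.58, adjusted p = 0.0574) was lost without line M (0.47, adjusted p = 0.133), and that of Tyms without E (adjusted p = 0.122) or M (adjusted p = 0.106).

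Of the mitotic members, Bub1, a kinase of the spindle checkpoint, changed the most. It lies at chr2:127801122-127831865 (minus strand). In mono-culture its lowest line was K at 2.01 CPM, its median 28.6 CPM and its highest line KPC1 at 64 CPM, and in coculture the lowest, median and highest lines stood at 13.2, 70.8 and 91.1 CPM. The log2 fold change was 1.34 (SE 0.21, adjusted p = 0.00159). It passed the test in each of the 7 clones and not in KPC1, whose libraries nevertheless did not overlap, at 68.4, 65.9, 51.6 and 70.5 CPM in mono-culture and 80.8, 83.1, 90.0 and 101 CPM in coculture.

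The Aurora kinases followed. Aurkb, the kinase of the chromosomal passenger complex, lies at chr11:69045647-69051664 (plus strand) and ranged over 1.39, 20.1 and 40.9 CPM in mono-culture and 8.99, 40.7 and 55.5 CPM in coculture (lowest, median and highest line). Its log2 fold change was 1.07 (SE 0.21, adjusted p = 0.00374). Aurka, which acts at the spindle poles, lies at chr2:172356190-172370535 (minus strand), with 6.56, 30.2 and 57.2 CPM in mono-culture and 17.9, 62.5 and 83.4 CPM in coculture. Aurka changed by 1.00 on the log2 scale (SE 0.11, adjusted p = 0.000352) and, with Tpx2, its activator at the spindle, and Cdk1, the mitotic kinase, was one of 3 mitotic members that passed in all 8 lines.

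Among the other mitotic members the log2 fold changes were between 0.61 for Birc5, which encodes survivin, and 0.99 for Ccnb1, which encodes cyclin B1, apart from the 0.57 of Ccnb2. Mki67, which encodes the proliferation marker Ki-67, changed by 0.93 (SE 0.23, adjusted p = 0.00958) and passed in 4 lines, and Top2a, the topoisomerase that untangles sister chromatids, by 0.91 and passed in 6. The motor proteins Kif11, Kif20a and Kif23 changed by 0.67, 0.78 and 0.89, and the centromere proteins Cenpa, Cenpe and Cenpf by 0.84, 0.86 and 0.67. Ccnb2 was higher in 6 lines and passed in K (2.80) and M (0.91) only, whereas Ccnb1 passed in all 7 clones.

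The G1/S regulators were the least uniform. Both E-type cyclins rose. Ccne2 (chr4:11191351-11204779, plus strand) stood at 0.937, 3.11 and 6.99 CPM in the lowest, the median and the highest line in mono-culture and at 3.86, 8.38 and 14.2 CPM in coculture, a log2 fold change of 1.37 (SE 0.18, adjusted p = 0.000825), the largest of the 37. Ccne1 (chr7:38097984-38107534, minus strand) stood at 1.42, 3.71 and 12.6 CPM and at 5.73, 8.52 and 20.8 CPM, a log2 fold change of 1.20 (SE 0.25, adjusted p = 0.00500). Ccne1 passed in 6 lines, and the exceptions were N (0.45, SE 0.22, adjusted p = 0.107) and KPC1 (-0.18, SE 0.22, adjusted p = 0.581). The exons of Ccne2 share 609 bases with Ints8 on the opposite strand, which had 29194 counts in all to the 6100 of Ccne2, and the strand setting of the counting is not given in the sources used here.

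Cyclin D1 and E2F1 changed less. Ccnd1 (chr7:144929931-144939925, minus strand) was abundant, at 191 CPM in the lowest line, 636 CPM at the median and 857 CPM in the highest in mono-culture and at 464, 810 and 1112 CPM in coculture, and its log2 fold change was 0.50 (SE 0.19, adjusted p = 0.0528). It was higher in 5 lines, all of which passed, and gave -0.28 in H, -0.28 in V and -0.04 in KPC1. The H libraries held 650, 764, 705 and 518 CPM in mono-culture and 687, 495, 614 and 373 CPM in coculture, which overlap. E2f1 (chr2:154559407-154569892, minus strand) ranged over 24.6, 37 and 46.5 CPM in mono-culture and 33.3, 43 and 63.3 CPM in coculture, a log2 fold change of 0.24 (SE 0.10, adjusted p = 0.0868). Both calls lay close to the threshold and were lost when any 1 of several lines was left out. That of Ccnd1 was lost without E, K, M, N or T (adjusted p of 0.128, 0.118, 0.124, 0.103 and 0.110), and that of E2f1 without any one of E, V, K, M, N or T (adjusted p from 0.145 without N to 0.205 without T).

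**Figure D2:**
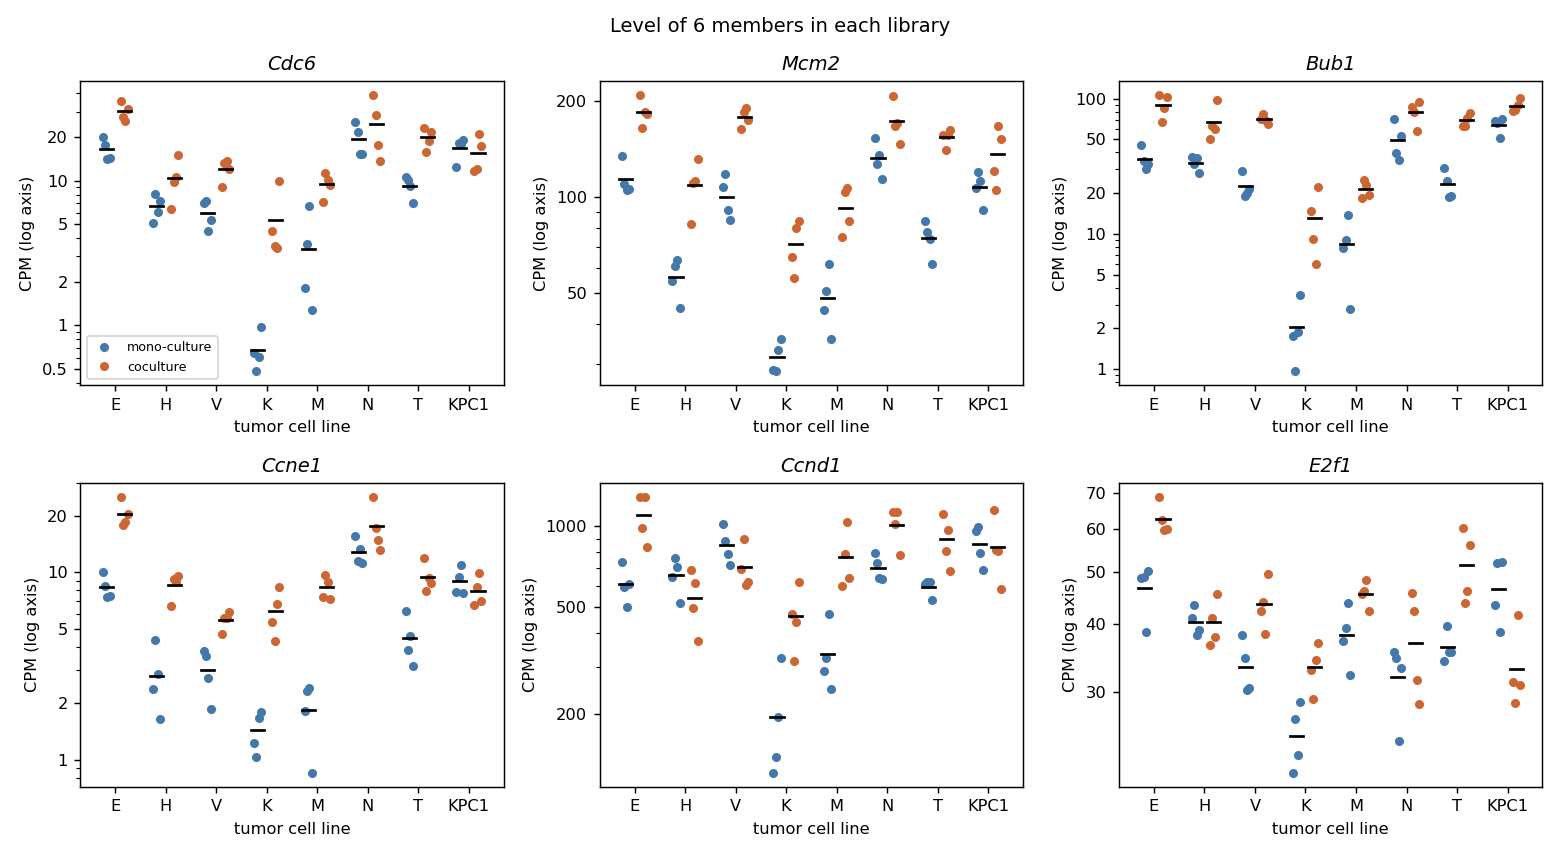
Level of 6 members in each library, in CPM on a log axis, with the 4 libraries of mono-culture and of coculture side by side for each line and a bar at their mean. Cdc6, Mcm2 and Bub1 rise in clone K from the lowest of the line levels, at 0.670, 31.4 and 2.01 CPM. Single libraries of M reach into the range of K for Mcm2 and Bub1. Ccnd1 overlaps between cultures in H, V, K, N and KPC1, and E2f1 is lower in coculture in KPC1.

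To set the shared movement beside the sequence of the promoters, the 250 bases before the RefSeq start of each gene were searched on both strands for the letters of 3 motifs. These were an E2F motif (TTTCCCGC, TTTCGCGC, TTTGCCGC or TTTGGCGC), the cell cycle homology region or CHR, which the MuvB complex reads (TTTAAA or TTTGAA), and the CCAAT box of the factor NF-Y (CCAAT). The RefSeq table (GRCm38.p6) held 30 such windows for 29 of the 37 members. Gins2, Ccnd1, Ccne2, Ccna2, Mcm4, Tpx2, Aurkb and Kif20a had none there. The E2F letters were in 4 of 10 windows of S-phase members and 1 of 18 of mitotic members, and in 1.86% of all 32851 windows. The CHR letters were in 2 of 10 and 12 of 18, and in 25.2% of all windows, and the CCAAT letters in 7 of 10 and 16 of 18, and in 33.8% of all windows. A match describes the letters only and is not a bound site.

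The 5 windows below are those of the 2 S-phase and the 3 mitotic members with the most matches, Ube2c and Cdk1 being equal at 6, and are shown so that the arrangement of the letters can be read. Each runs 5′ to 3′ on the strand of the gene, matches to any of the 3 motifs are in capitals, and the last base is the one before the start. In the S-phase windows the E2F letters stand as TTTCGCGCCAAA in Mcm5 and as TTTGGCGCGAAA in Mcm6, each being overlapping matches on both strands, and Mcm6 holds TTTGGCGC once more. In the mitotic windows the CCAAT letters recur, with 6 separate matches in Top2a, 5 in Ube2c, where one overlaps its reverse, and 3 in Cdk1. Each has a CHR match close to the start, as TTTGAA in Cdk1 and as TTCAAA, the other strand of TTTGAA, in Top2a and Ube2c. Cdk1 is the 1 mitotic member with E2F letters, as TTTCGCGC, and Top2a and Ube2c hold none.
Mcm5 (chr8:75109259-75109508, plus strand): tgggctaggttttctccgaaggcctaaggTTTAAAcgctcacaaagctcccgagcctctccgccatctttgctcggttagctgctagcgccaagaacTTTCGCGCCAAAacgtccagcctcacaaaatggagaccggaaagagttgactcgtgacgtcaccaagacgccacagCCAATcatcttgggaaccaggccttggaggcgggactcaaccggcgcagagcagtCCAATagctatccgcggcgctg
Mcm6 (chr1:128359706-128359955, minus strand): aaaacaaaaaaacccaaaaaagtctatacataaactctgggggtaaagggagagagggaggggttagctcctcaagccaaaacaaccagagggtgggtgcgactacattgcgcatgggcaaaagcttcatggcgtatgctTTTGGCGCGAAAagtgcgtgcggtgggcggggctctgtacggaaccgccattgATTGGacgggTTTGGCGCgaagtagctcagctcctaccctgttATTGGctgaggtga
Top2a (chr11:99024190-99024439, minus strand): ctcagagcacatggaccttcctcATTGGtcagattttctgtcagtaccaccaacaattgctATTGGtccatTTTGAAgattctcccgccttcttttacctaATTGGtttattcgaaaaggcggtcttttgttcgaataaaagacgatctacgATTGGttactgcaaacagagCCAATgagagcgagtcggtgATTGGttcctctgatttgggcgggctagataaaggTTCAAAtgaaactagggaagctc
Ube2c (chr2:164769679-164769928, plus strand): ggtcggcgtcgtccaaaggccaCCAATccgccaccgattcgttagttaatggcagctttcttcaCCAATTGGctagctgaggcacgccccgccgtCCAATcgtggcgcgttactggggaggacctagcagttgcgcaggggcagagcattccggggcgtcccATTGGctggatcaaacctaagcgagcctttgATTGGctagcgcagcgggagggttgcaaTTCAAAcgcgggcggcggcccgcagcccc
Cdk1 (chr10:69352913-69353162, minus strand): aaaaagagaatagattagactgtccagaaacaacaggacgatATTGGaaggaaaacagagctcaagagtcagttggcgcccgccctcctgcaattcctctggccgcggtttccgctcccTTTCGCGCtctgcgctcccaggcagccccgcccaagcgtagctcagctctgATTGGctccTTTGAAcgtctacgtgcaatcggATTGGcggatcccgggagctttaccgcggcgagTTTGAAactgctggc

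**Figure D3:**
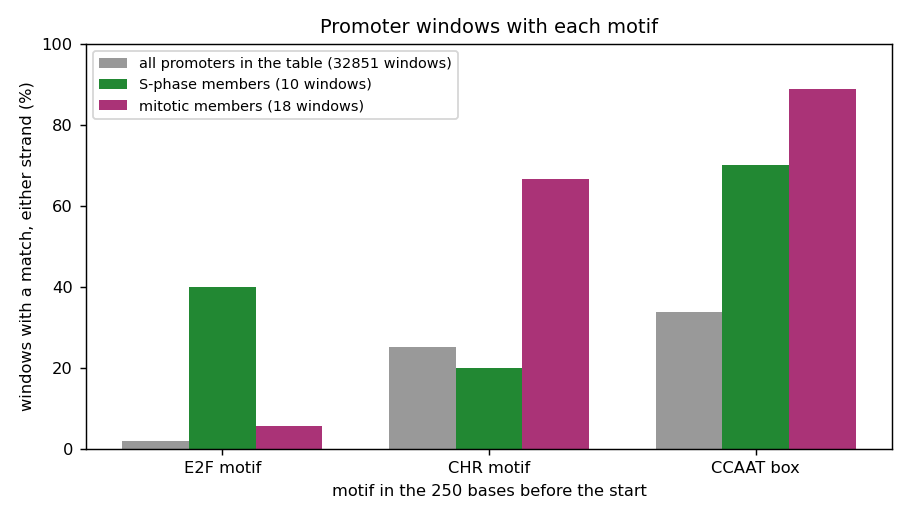
Percentage of promoter windows (250 bases before the start, either strand) that hold the letters of each motif, for all 32851 windows, the 10 windows of S-phase members and the 18 of mitotic members. E2F letters were in 4 of 10 S-phase and 1 of 18 mitotic windows, and CHR letters in 2 of 10 and 12 of 18.

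Top2a and Ube2c, which encodes the ubiquitin-conjugating enzyme of the anaphase-promoting complex, changed by 0.91 and 0.87 over the 8 lines and Cdk1 by 0.74, compared with 0.58 for Mcm5 and 0.44 for Mcm6. In clone K, Mcm5 changed by 2.15, compared with 2.43 for Top2a, 2.60 for Ube2c and 1.19 for Cdk1.

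The lines were then taken singly, 4 libraries against 4, in one fit of all 64 libraries and 14134 genes. In clone E, 28 members were called higher, against 32.1% of all genes. In H 23 were called higher (21.4% of all genes), and in V 32 (30%). In K 36 were called higher, against 12.5% of all genes, the lowest share among the lines, in M 33 (21.6%), in N 18 (20%) and in T 32 (31.5%). In these 7 clones 0 members were called lower, against 8.02% of all genes in K, 17.3% in M, 17.4% in N, 22.6% in H, 29.2% in E, 30.7% in T and 31.5% in V. With the replicate number as a block in edgeR's test, Ccnd1 was called lower in H (-0.30, adjusted p = 0.0765) and in V (-0.28, adjusted p = 0.0777). In KPC1, 7 members were called higher (20.1% of all genes) and 1 lower (19%), namely E2f1, which changed by -0.49 (SE 0.13, adjusted p = 0.00304). The KPC1 libraries held 43.4, 51.9, 38.7 and 52.1 CPM of E2f1 in mono-culture and 31.3, 28.6, 41.6 and 31 CPM in coculture, and 1 coculture library overlapped the range of mono-culture. These counts moved when a replicate was left out, to 5 of 37 in N without replicate 2 and 11 without replicate 3, to 12 in H without replicate 4 and to 4 higher in KPC1 without replicate 4.

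The size of the response differed between lines for 36 of 37 members in a test of all 7 interaction terms together, against 71.3% of all genes, and for 22 members when replicate 1 was left out. The exception was Kif23, a motor of cytokinesis (adjusted p = 0.258), with log2 fold changes between 0.39 in KPC1 and 1.33 in K. Clone K had the highest log2 fold change of the 8 lines for 28 members, against 16.8% of all genes, among them 20 of 21 mitotic members but 5 of 11 S-phase members. The median change of the mitotic members was 1.95 in K, compared with 0.98 in V, 0.89 in M, 0.86 in T, 0.65 in E, 0.57 in both H and N, and 0.41 in KPC1. For the S-phase members it was 0.88 in K, 0.93 in M, 0.84 in T, 0.69 in E, 0.56 in H, 0.53 in V, 0.27 in N and 0.07 in KPC1. Thus KPC1 changed least in both roles.

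**Figure D4:**
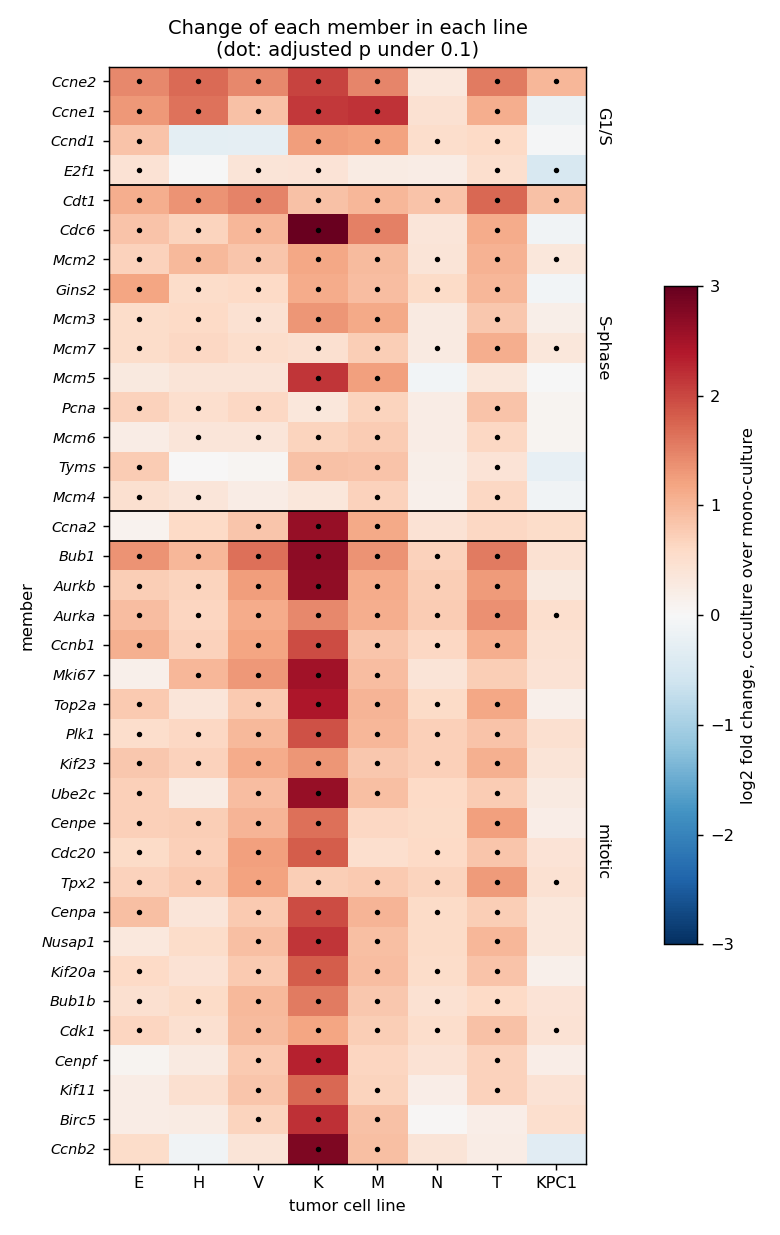
Log2 fold change of coculture over mono-culture for each of the 37 members (rows, by role) in each line (columns), with a dot where the adjusted p was under 0.1. Clone K is the darkest column among the mitotic members, with a median of 1.95, and KPC1 the palest. In KPC1, 7 members were called higher (20.1% of all genes) and 1 lower (19%).

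Of the fibroblast markers, Thy1, Postn and Col1a2 were described by line in coculture. Thy1 was lowest in K, at 6.08 CPM, and highest in KPC1, at 16.4 CPM, while Postn was highest in K, at 74.6 CPM, and lowest in KPC1, at 40.9 CPM. Col1a2 stood at 226 CPM in K and 160 CPM in KPC1, within a range of 123 to 227 CPM. The other fibroblast markers were not described by line. Whether these transcripts came from fibroblasts or from tumor cells, and how their levels relate to the response, was not tested.

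The lines also differed in the level from which they started, which enters the change as well, since both rest on the same mono-culture libraries. In mono-culture all 37 members differed between the 8 lines (F test over libraries), against 95.1% of all genes, so this share reads close to the background. Clone K was the lowest of the 8 lines for 32 of 37 members, against 17.9% of all genes, including 20 of 21 mitotic members, 7 of 11 S-phase members, all 4 G1/S regulators and Ccna2. For the remaining 5 members (Mcm4, Mcm7, Pcna, Tyms and Tpx2), M was the lowest. KPC1, N and E were the highest lines. All 4 libraries of K lay below all 28 other mono-culture libraries for 8 members, against 4.31% of all genes. For the rest, single libraries overlapped, as for Bub1, where the fourth library of M held 2.80 CPM and the fourth of K 3.55 CPM. In coculture 0 members had all K libraries below the other 28, against 3.27%.

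The spread between lines in mono-culture differed from member to member. The fold of the highest over the lowest line was between 4.02 for Cdk1 and 31.8 for Bub1 among the mitotic members. The highest line exceeded the lowest by 31.8-fold for Bub1, 29.4-fold for Aurkb, 26-fold for Ccnb2 and 23.6-fold for Mki67, and by 28.3-fold for Cdc6 and 23.2-fold for Ccna2. Among the other S-phase members the fold was between 1.89 for Mcm6 and 12.3 for Mcm5, and it was 1.89 for E2f1. In coculture these ranges narrowed to 6.93-fold for Bub1, 6.18-fold for Aurkb, 4.20-fold for Ccnb2, 4.36-fold for Mki67 and 5.63-fold for Cdc6, with K still the lowest line. These members were picked for their wide ranges in mono-culture. The range did not narrow for Cdt1 (3.41-fold in mono-culture and 3.53-fold in coculture), E2f1 (1.89 and 1.90) or Pcna (2.43 in each). The mean log2 CPM of the mitotic members had an SD over lines of 1.26 in mono-culture and 0.788 in coculture, and that of the S-phase members 0.647 and 0.417.

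Libraries within K and M differed as well. The mitotic level of K in mono-culture was 2.12, 2.47, 2.26 and 3.39, and in coculture 4.60, 4.17, 3.88 and 5.40, so the fourth library was the highest in each culture. In M the mono-culture values were 4.41, 4.30, 5.18 and 3.23, and the coculture values 5.30, 5.55, 5.42 and 4.88, with overlap. Mki67 in K was 2.40, 5.44, 4.16 and 17.1 CPM in mono-culture and 18.8, 24.2, 25 and 98.1 CPM in coculture. The libraries were split by the number in their labels into a first series up to 43, with 43 libraries, and a second series with 21. The library numbers run on without a break, and the split is where another number given with each library starts again. All 4 mono-culture libraries of K are in the second series, as are the first and the third of its coculture libraries. Within the second series, the mitotic level of K was at most 3.39 in mono-culture and 4.60 and 3.88 in coculture.

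S-phase and mitotic members were set against each other within each library by subtracting the mean log2 CPM of the latter from that of the former, a difference that the scaling of a library does not touch. It describes a balance of transcripts and its zero has no meaning of its own, since levels of different genes depend on their lengths. In mono-culture it was 1.77 ± 0.53 (SD, n = 4 libraries) in clone K, whereas the means of the other 7 lines were between -0.33 in KPC1 and 0.44 in V. K had the lowest mean level in both roles, and its distance from the other lines was the larger in the mitotic one.

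In coculture the difference in K was 0.903 ± 0.483, with values of 0.795, 0.912, 1.54 and 0.368, against 2.14, 1.72, 2.16 and 1.03 in mono-culture. The ranges overlapped through the fourth mono-culture and the third coculture library. In V it went from 0.438 ± 0.148 to 0.0344 ± 0.0975, the only line whose libraries did not overlap. Over the 8 lines the change was -0.22 ± 0.30 (SD), and -0.13 ± 0.17 without K, with 6 lines below 0 and E and H slightly above, at 0.04 and 0.03. In the 6 lines other than K and V, the change of the difference lay between -0.27 in N and 0.04 in E, within the spread of their libraries.

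**Figure D5:**
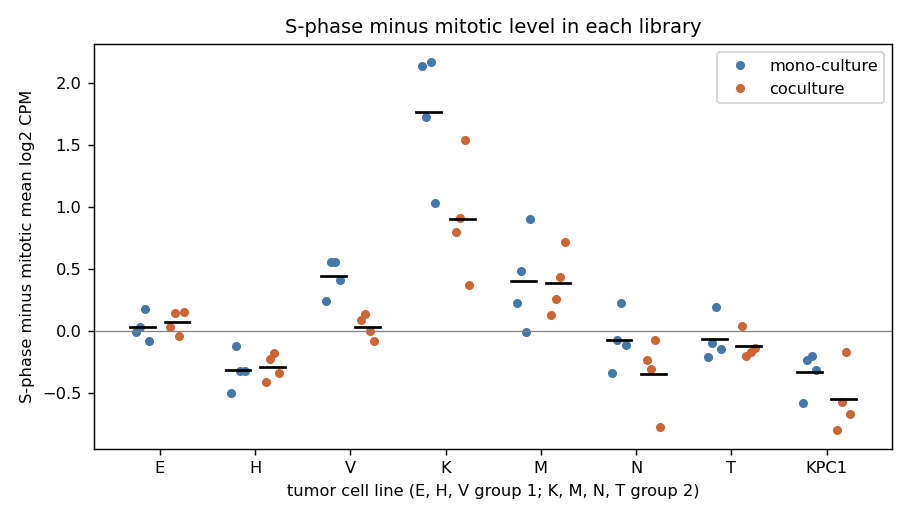
Mean log2 CPM of the S-phase members minus that of the mitotic members in each library, for both cultures of each line, with a bar at the mean of 4. The mean of clone K is above those of all other lines, at 1.77 in mono-culture and 0.903 in coculture. Single coculture libraries of K and M overlap, at 0.368 in the lowest of K and 0.716 in the highest of M. V drops from 0.438 to 0.0344 with no overlap.

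The 2 metabolic groups of clones were not separated by the set. In mono-culture 0 of 37 members were called between group 1 (3 clones) and group 2 (4 clones) in edgeR's test of summed libraries, with 0% of all 14829 genes called. DESeq2 also called 0 members, with 117 genes called in all, and 0 members had an unadjusted p under 0.05 in edgeR, against 5.17% of all genes. The median log2 difference, group 1 minus group 2, was 0.35 over the members, with a range from -0.31 to 0.76. Kif20a, a motor of cytokinesis, had the largest, 0.76 (SE 0.60, adjusted p = 0.900). Bub1 differed by 0.57 (SE 0.89) and Cdc6 by 0.27 (SE 0.97), so that differences of this size were within the spread between clones. In coculture 0 members were called, against 0.00679% of 14737 genes.

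No difference between the groups in their response was called for any member in edgeR (0 of 37, against 0.00618% of 16172 genes), and DESeq2 called 0 members as well. By unadjusted p under 0.05, 1 member was found, against 7.51% of all genes. This was Ccnd1, with a log2 difference of response, group 1 minus group 2, of -0.81 (SE 0.32, adjusted p = 0.662 in edgeR's test). Its response was 0.85 in E and -0.28 in H and V, and 1.25, 1.21, 0.53 and 0.59 in K, M, N and T, so that clone E lay among the values of group 2.

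Other genes of the cell cycle, 98 in a list by role, were described beside the 37. The list was chosen with earlier results of these data known. Of the 97 tested, 76 were called higher in coculture over the 8 lines, 3 lower and 18 neither. Over all genes tested, 26.8% were called higher and 25.2% lower. Among further S-phase genes 24 of 25 were called higher, with a median log2 fold change of 0.59, and among further mitotic genes 37 of 38, with a median of 0.82. The largest increases were those of Ncapg, a condensin subunit (1.30, SE 0.19, adjusted p = 0.00133), the repressive E2F family member E2f8 (1.28, SE 0.28, adjusted p = 0.00559) and Espl1, the separase that parts sister chromatids (1.17, SE 0.19, adjusted p = 0.00206).

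Among the regulators of the machinery, 7 of 17 Rb, E2F and MuvB factors were called higher and 2 lower, and of 9 other cyclins and kinases 5 were called higher and 1 lower, beside the 26.8% and 25.2% of all genes. The 3 genes called lower were Rbl2, which encodes the pocket protein p130 of quiescent cells (-0.41, SE 0.10, adjusted p = 0.00934), the cyclin Ccnd3 (-0.34, SE 0.13, adjusted p = 0.0601) and Tfdp2, a partner of E2F (-0.18, SE 0.07, adjusted p = 0.0580). Of 8 inhibitors tested, 3 were called, all higher, namely Gmnn, the inhibitor of Cdt1 (0.69), Cdkn1a, which encodes p21 (0.45), and Cdkn2b (0.44). Cdkn1b, which encodes p27, gave -0.12 (SE 0.08, adjusted p = 0.231).

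Some members share annotation with other genes. Ccnb1, Ccnb2, Pcna and Tyms have annotated pseudogene copies, and in all libraries together the copies held 508 counts to the 45653 of Ccnb1, 2806 to the 39963 of Ccnb2 and 8419 to the 144101 of Pcna. The exons of Gins2 share 2758 bases with Gse1 on the opposite strand, which had 27552 counts to its 9158, and those of Kif20a share 1271 bases with Cdc23, which had 45902 counts to its 73250. How reads of these pairs were assigned could change their values, and this was not tested.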

How the data were processed

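The submitters deposited whole numbers of reads counted per gene as raw counts, without normalization, and RPKM values that the authors computed per gene and library. Their processing notes name featureCounts and edgeR without versions and the build mm10, and the aligner and the strand setting are not given in the sources used here. Libraries were poly(A), made with a strand-specific kit. CPM were computed from the counts with TMM-scaled totals in edgeR (4.0.16), and log2 CPM with a prior count of 0.5. At 11178721 counts or more in a library, the precision of most members was set by the spread between libraries and lines rather than by counting error, apart from a few in mono-culture of clones K and M with 5 to 15 counts in a library.

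Samples were grouped by the line and culture in their labels, and clones by the study's groups. Not every allele of the KPC mouse is reported here. Tests were edgeR's quasi-likelihood tests after filterByExpr, on sums of 4 libraries with the line as a covariate, or on the 64 libraries with a mean for each line and culture. The threshold was an adjusted p (Benjamini-Hochberg over all genes tested) of 0.1, the study's. Each F test took all lines together. A mean over members was given no test.

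The members, their roles and the lists of other genes and markers were chosen with earlier results of these data known. Full values are given for the 3 S-phase, 3 mitotic and 4 G1/S members of the largest change in coculture, and for up to 3 other cell cycle genes in each direction. Positions are from GENCODE M21 (GRCm38) and promoter windows from RefSeq (GRCm38.p6). The fits were tested on simulated data. Alternatives were DESeq2 (1.42.0), RLE size factors, no filter on low counts, a threshold of 0.05, each line or replicate left out, the replicate number as a block, the series of library numbers, and limma (3.58.1) on log2 RPKM with pseudocounts of 1 and 0.1.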

Additional observations from a re-analysis of the deposited data

Results flagged for a closer look

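Library totals, the S-phase and mitotic levels, their difference and the CPM of the 10 members described in full were searched for a library far from the other 3 of its line and culture. Of 224 groups of 4 libraries, 6 held one, while chance alone flags about 1 in 20 groups. The gap of that library to its nearest neighbor took up 0.867 of the range for the totals of KPC1 in coculture, 0.837 for Cdc6 in K in coculture (9.91 CPM in the fourth library), 0.830 for Mcm2 in E in mono-culture, 0.985 for Aurka in E in coculture (79.3 CPM in the first library, 58.7 to 59 in the others), 0.856 for Ccnd1 in T in mono-culture and 0.876 for E2f1 in E in mono-culture.

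The response to coculture differed between the 8 lines for 36 members, against 71.3% of all genes, by the test of the interaction terms. With replicate 1 left out it differed for 22 members. Kif23 was the exception. Clone K had the highest change for 28 of the 37, against 16.8% of all genes. KPC1 had 7 called higher (20.1% of all genes) and 1 lower (19%).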

How the results depend on the processing

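The rise of the set in coculture over the 8 lines held under every alternative run. Between 32 and 37 members were called higher and 0 lower, 32 without line M and with the libraries numbered 1 to 43 only, and 37 under several others, DESeq2 among them. The calls lost were those of E2f1, Ccnd1, Mcm5 and Tyms. With the libraries numbered 1 to 43, Mcm5 and Tyms stood at 0.22 each (adjusted p = 0.344 and 0.260). That fit left clone K out altogether, since K has no mono-culture library among those numbers. Tyms was also lost without line E (adjusted p = 0.122) or M (adjusted p = 0.106), and Mcm5 without line M (adjusted p = 0.133) and at a threshold of 0.05 (adjusted p = 0.0574). Ccnb2 was called without line K. No log2 fold change of a member over the 8 lines changed sign. The change of the S-phase minus mitotic level was between -0.24 and -0.17 with other scalings, medians or roles or a replicate left out, and -0.13 without line K, and K exceeded the mean of the other 7 lines in mono-culture by 1.32 (log2 RPKM, pseudocount 1) to 2.01.

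Calls within lines were less stable. Members called, with a replicate left out, were 5 to 16 in N (5 to 16 higher), 12 to 24 in H (12 to 24 higher) and 5 to 8 in KPC1 (4 to 7 higher), and members whose response differed between lines 22 to 34. At a threshold of 0.05 N had 11, all higher. All genes called ranged from 1851 to 2558 in K and from 3485 to 5002 in M. The members called between groups stayed at 0 except with 28 libraries as replicates, which does not take the clone as the unit, where 4 were higher in group 1 (Ccnd1, Mcm7, Tyms and E2f1) among 3925 genes. All genes called between groups in mono-culture were 0 in the main test, 117 with DESeq2, 217 without clone E, 2 with the libraries numbered 1 to 43, 1 without a filter, 1 without clone M and 1 in coculture libraries. For the difference of response they were 1 in the main test, 191 with DESeq2, 48 without clone E, 4 without clone T, 3 without a filter, 0 without H, V, K or N, 0 at a threshold of 0.05, and 0 to 2 without a replicate. The causes were not tested.

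Replicate numbers were not taken to pair the libraries, since not every pair deviated together. Of 32 pairs of the same number in both cultures of a line, 18 correlated above 0.1 in their deviations (range -0.07 to 0.29), and 45 of 64 libraries correlated best with their own number, which is a hint from the data and not from the design. Clone N was the 1 line with all 4 pairs above 0.1 (0.23 to 0.29). With the replicate number as a block, 37 members were called higher over the 8 lines, N had 23 called, KPC1 had 16 called, 15 of them higher, and 1 member was called lower in H and 1 in V, in both cases Ccnd1 (-0.30 and -0.28, adjusted p = 0.0765 and 0.0777).

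Depth limits the lowest values, chiefly those of clones K and M in mono-culture. With 1 line as the unit and 3 clones against 4, differences between groups smaller than the spread between clones could not be detected.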
